A study of Homo sapiens with 16 samples.

Results

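The C2H2 zinc finger genes of the short arm of chromosome 19 were followed in 2 human multiple myeloma cell lines treated with inhibitors of the histone methyltransferases EZH2 and G9a. A gene belonged to the group when its probe name on the expression array began with ZNF, ZFP, ZSCAN or ZKSCAN and the probe lay on chromosome 19 before base 26000000 (build GRCh37). The array held 82 such genes, and 70 of them, among 20035 gene names that passed the same filter, had both arrays above background in 1 or more of the 8 sample groups. The members were thus selected on measured signal as well as on name and position, by the detection filter and by keeping a single probe of every gene, the one brightest on average across the 16 arrays.

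RPMI-8226 and MM.1S are established lines derived from myeloma, a cancer of plasma cells. Each line was grown for 6 days with the solvent DMSO, with GSK126 (1 μM), which inhibits EZH2 and thereby methylation of lysine 27 of histone H3, with UNC0638 (1 μM), which inhibits G9a (encoded by EHMT2) and thereby dimethylation of lysine 9 of histone H3, or with both agents (1 μM each). Every group held 2 biological replicates, and every comparison with DMSO within a line used the same 2 DMSO arrays. All 8 arrays of a line shared 1 slide and 1 scan, so slide and line cannot be told apart. On each slide, treatments were laid out by column and replicate numbers by row.

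Most zinc finger genes of this arm encode KRAB zinc finger proteins. The array of fingers binds DNA, often within transposable elements, and the KRAB domain recruits the corepressor TRIM28, which brings in SETDB1, the writer of trimethylated lysine 9 of histone H3, and HP1 proteins. The family grew by tandem duplication, which left neighbouring genes with closely related sequences, and the finger-coding exons of such genes are known to carry repressive histone H3 lysine 9 methylation while the genes are transcribed.

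Levels below are log2 values of the processed spot intensity, from which that array's 75th percentile was subtracted on the same scale, so 0 is the brightness of the spot at that percentile and a difference of 1 is a doubling. A level belongs to 1 probe and was never set against the level of another gene. A change was called when limma's moderated test, adjusted by Benjamini-Hochberg over all probes kept, gave an adjusted p under 0.05. The 75th percentile itself lay between 254 and 347 intensity units in RPMI-8226 and between 430 and 476 in MM.1S, no spot was saturated, and 46.5% to 49.7% of the spots in RPMI-8226 and 49.9% to 52.8% in MM.1S were well above background. All 10 plasma cell markers examined were above background in every group. Their summed level, as linear multiples of the 75th percentile, was 353 to 414 in RPMI-8226 with DMSO and 215 to 282 with the combination, and 685 to 712 and 461 to 463 in MM.1S. The summed level of 4 T cell markers on the same scale was 0.411 to 0.489 in RPMI-8226 with DMSO and 12.4 to 14.1 with the combination, while in MM.1S it was 0.232 to 0.265 and 0.745 to 0.824. The summed level of 4 B cell markers moved from 0.0475 to 0.0618 up to 0.615 to 1.22 in RPMI-8226 and from 0.0386 to 0.0393 up to 0.122 to 0.155 in MM.1S, and of these 4 markers 1 was above background with the combination in each line. Of the 4 myeloid markers 3 were measured, and their sum was 0.556 to 0.958 with DMSO and 4.45 to 5.24 with the combination in RPMI-8226, where all 3 were then above background, and 0.189 to 0.192 and 0.648 to 0.808 in MM.1S. The sum of 3 erythroid markers was 7.98 to 9.42 and 3.5 to 4.62 in RPMI-8226 and 13.97 to 14.8 and 22.1 to 22.5 in MM.1S in the same order. That of 4 epithelial markers was 82.1 to 96.7 and 67.1 to 68.3 in RPMI-8226 and 1.06 to 1.19 and 0.938 to 0.978 in MM.1S. The part of these marker changes in the zinc finger results was not tested.

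The 82 genes fell into 6 blocks separated by more than 500000 bases without a zinc finger probe. Block 1 ran from chr19:2836674-2933493 (4 members of 5 genes), block 2 from chr19:7087867-7585273 (2 of 2), block 3 from chr19:8576824-9868210 (11 of 14), block 4 from chr19:11596540-12740240 (22 of 26), and block 5 was ZNF333 alone, at chr19:14831167-14831226. Block 6, the stretch next to the centromere from ZNF101 to ZNF254 (chr19:19790730-24309903), was the largest, with 30 members of 34 genes. The first zinc finger probe of the long arm, for ZNF536, began at base 31040337.

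Of the 70 members, 51 were above background on all 16 arrays and 57 passed in both DMSO groups. ZNF57 and ZNF14 passed in RPMI-8226 alone and 10 members passed in MM.1S alone. At the edge of the filter, ZNF69, ZNF506 and ZNF43 passed through 1 group each (mean levels -5.41, -5.22 and -5.71 over 16 arrays). ZNF699 and these 3 members passed through treated groups and not through DMSO. Just outside it, ZNF812 was above background on 2 arrays (mean level -5.40), and the other 11 genes that did not pass (ZNF554, ZNF560, ZNF846, ZNF833P, ZNF491, ZNF878, ZNF563, ZNF682, ZNF431, ZNF708 and ZNF730) were above background on none. All 70 members were matched to RefSeq, 64 of them by accession, and ZNF788 is annotated there as the pseudogene ZNF788P.

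Probes of such a family can resemble each other. The 60-base probe of each member was compared with the probes of 866 other zinc finger transcripts: 16 members shared at least 45 identical bases with a probe of another gene, 15 of them in block 6, with a median over all members of 34 and a highest value of 51. The probes of 7 members, 4 of them in block 6, crossed the conserved linker between fingers in an open reading frame. The 4 shown here place these coding targets, with the linker codons in capitals (5′ to 3′ on the transcribed strand, GRCh37); the first 3 belong to block 6 and to genes that fell, and ZNF358 is the member that rose in both lines.
ZNF253, chr19:20002774-20002833: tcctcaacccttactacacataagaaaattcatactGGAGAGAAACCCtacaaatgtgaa
ZNF85, chr19:21132382-21132441: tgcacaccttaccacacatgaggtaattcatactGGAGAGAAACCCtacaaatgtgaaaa
ZNF729, chr19:22499726-22499785: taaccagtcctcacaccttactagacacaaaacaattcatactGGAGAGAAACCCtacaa
ZNF358, chr19:7585214-7585273: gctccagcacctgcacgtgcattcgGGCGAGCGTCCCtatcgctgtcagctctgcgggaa
The 3 block 6 probes carry the same 12 capitals, and ZNF358 spells its linker with other codons. Whether transcripts of near-identical genes bound these probes was not tested.

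With the combination in RPMI-8226, 34 of the 82 zinc finger genes of this arm on the array were called lower. Of the 60 members tested, limma called 34 lower and 1 higher, where 5.45% of all 23196 probes tested were called lower and 7.10% higher. Among the 60, ZNF559, ZNF441, ZNF844, ZNF44 and ZNF676 passed the filter in this line with DMSO but not with the combination. The filter thus favoured a fall for them. The median log2 fold change of the 60 members was -0.99, against -0.14 over all probes, and it was -0.96 with the 3 members that lost detection set at their bounds. With normexp background correction, whose added offset compresses dim probes, the median was -0.56. The array medians of all 70 members were -1.03 and -1.06 with DMSO and -2.10 and -2.05 with the combination. The calls rested on the few arrays: 16 members were called without DMSO replicate 1, 17 without DMSO replicate 2, 18 without combination replicate 1 and 19 without combination replicate 2, all of them lower.

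**Figure D1:**
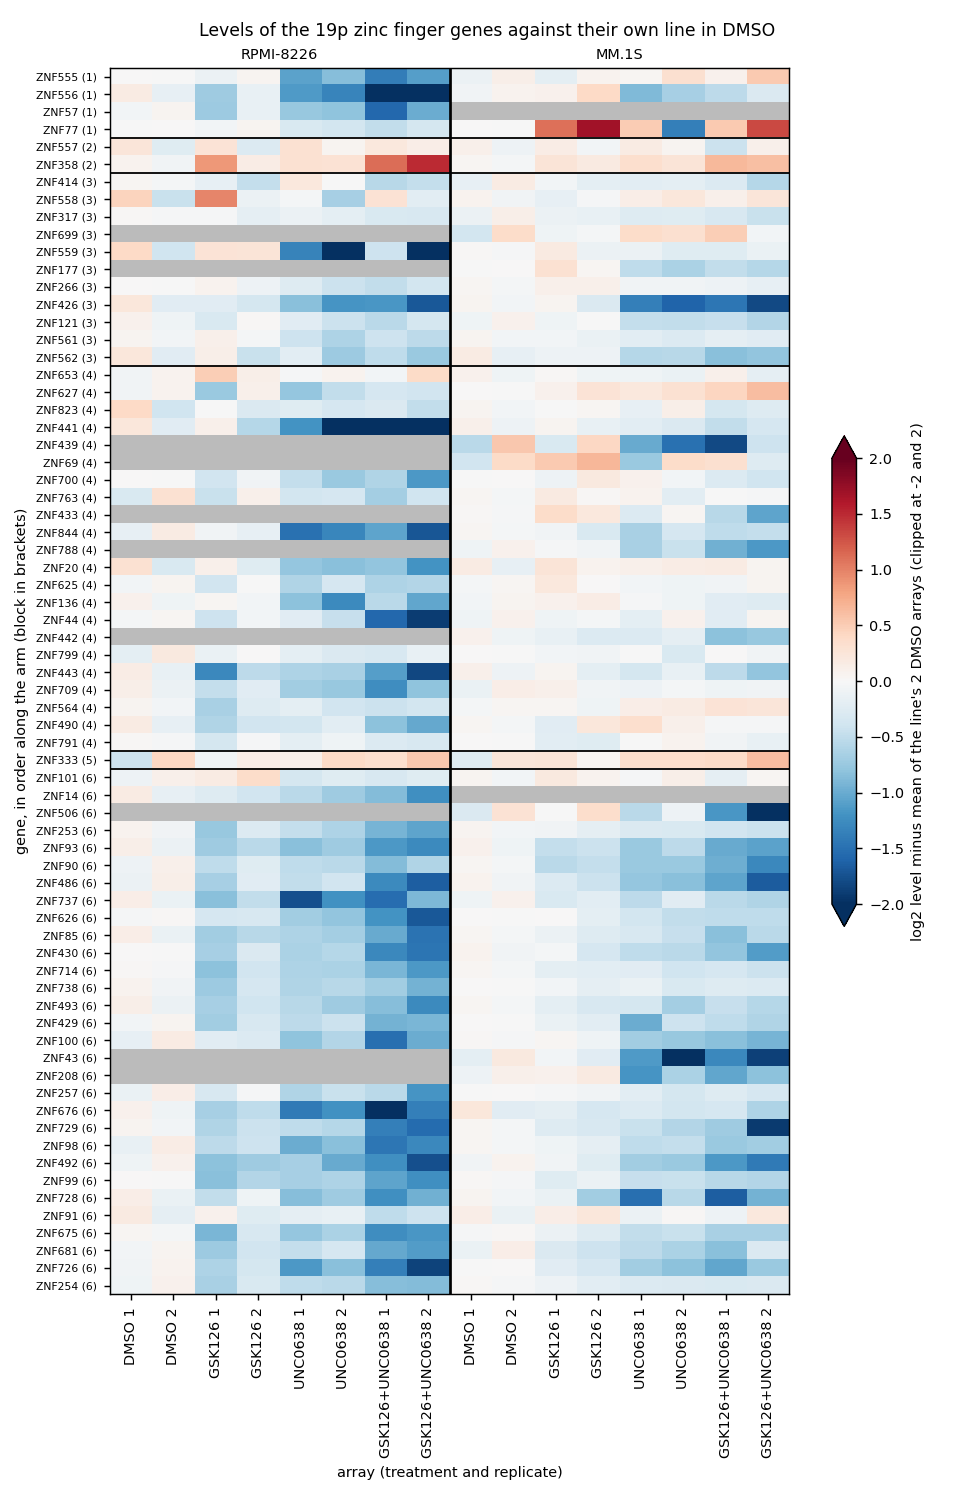
Level of each of the 70 members (rows, in order along the short arm, with the 6 blocks) on each of the 16 arrays (columns), as log2 difference from the mean of the DMSO arrays of the same line. Columns of the combination are the lowest over most rows of block 6 in both lines, while the row of ZNF358 rises; grey marks members not tested in that line and colours are clipped at -2 and 2.

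Block 6 fell nearly as a whole. In RPMI-8226, 24 of its 27 tested members were called lower, all 27 had a change below 0, and the median was -1.14. The changes were close to each other (SD 0.33 over the 27 members, against 0.75 over the 33 members outside the block). In MM.1S the SD was 0.45 over block 6 and 0.50 outside it. Outside block 6, 10 of 33 members were called lower and 1 higher, with a median of -0.54: 3 of 4 in block 1, 1 of 9 in block 3 and 6 of 17 in block 4. The count in block 6 was 11 to 23 when 1 array was left out, lowest without DMSO replicate 2 (11), DMSO replicate 1 (12), combination replicate 1 (13) and combination replicate 2 (14), and all 27 changes stayed below 0 in each of these fits.

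In MM.1S the fall centred on the same block with smaller changes. Of 68 members tested, 37 were called lower and 3 higher, where 31.5% of all 25100 probes were called lower and 22.2% higher, so this line had called changes across the whole array. Among the 68, ZNF439 and ZNF433 passed the filter in this line with DMSO but not with the combination, which favoured a fall. ZNF77 and ZNF699 passed with the combination but not with DMSO, which favoured a rise. The median of the members was -0.41, against -0.12 over all probes, and -0.38 with 4 members at their bounds. Block 6 held 25 of the 37 calls, from 29 tested members, with a median of -0.65 and 28 changes below 0. The count of 25 was 16 to 24 when 1 array was left out, lowest without DMSO replicate 2 (16), DMSO replicate 1 (17) and combination replicate 2 (18). Outside block 6, 12 of 39 members (30.8%) were called lower, a share near that of all probes, and the median was -0.16: 5 of 11 in block 3, 7 of 22 in block 4 and none of 3 in block 1, where 1 had an unadjusted p under 0.05. With the 75th percentile taken over probes detected on all 16 arrays, the median of all probes moved from -0.14 to -0.00 in RPMI-8226 and from -0.12 to 0.07 in MM.1S. The medians of the members were then -0.86 and -0.22, and block 6 had 21 and 17 members called lower, all of them among the 24 and 25 above.

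**Figure D2:**
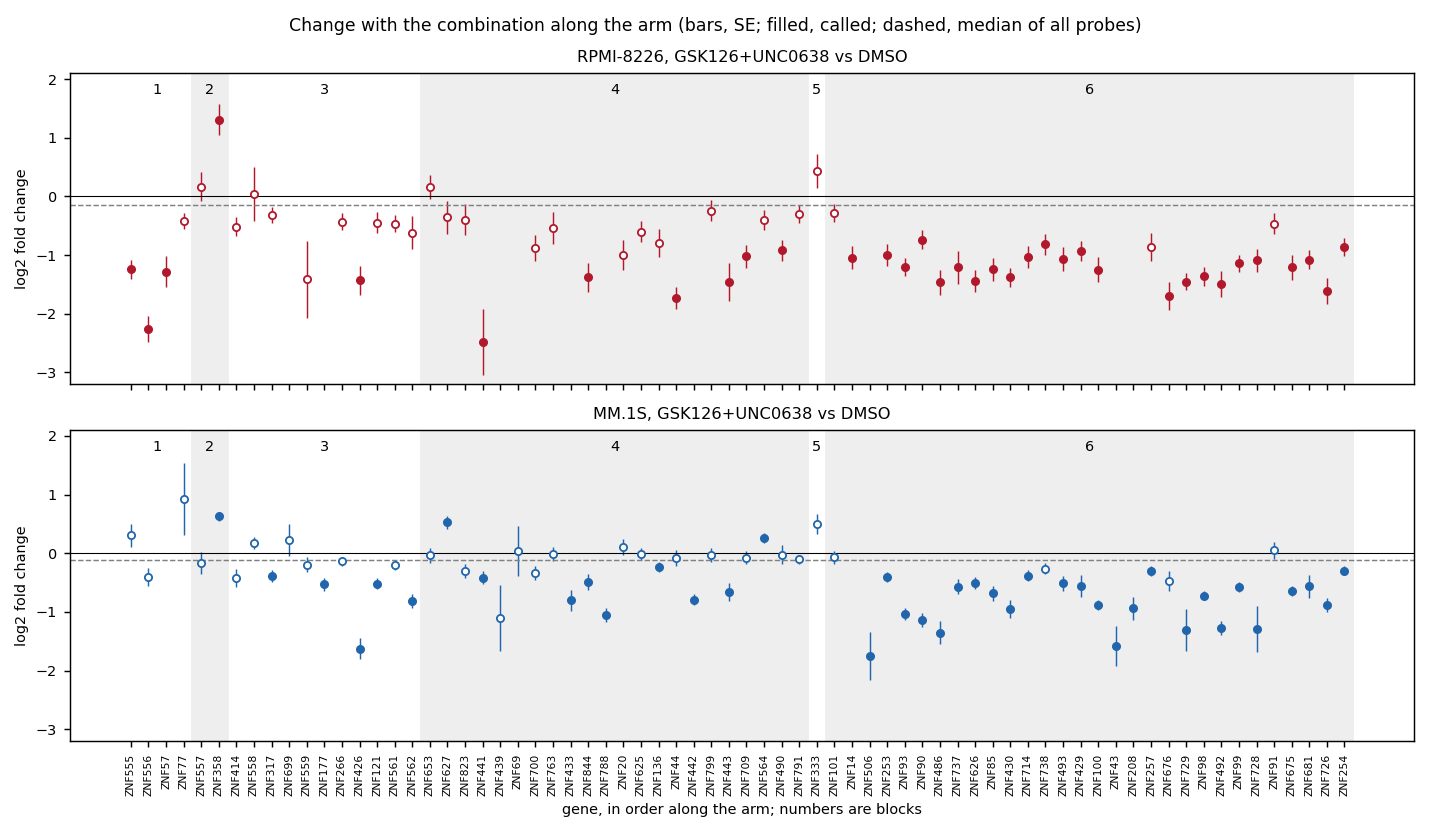
Log2 fold change of the combination over DMSO for each tested member in order along the short arm, in RPMI-8226 (60 members) and MM.1S (68 members), with called members filled. Bars are SE and the dashed line is the median of all probes. In block 6 all 27 points of RPMI-8226 and 28 of 29 points of MM.1S lie below 0.

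The members with the largest called falls in RPMI-8226 came from blocks 1, 4 and 6. Among those described below, ZNF441, ZNF44 and ZNF676 passed the filter in this line without the combination group, which favoured a fall for them. ZNF556 (block 1, chr19:2878321-2878380) had levels of -0.46 and -0.80 with DMSO, -1.35 and -0.78 with GSK126, -1.77 and -1.95 with UNC0638 and -2.92 and -2.87 with the combination. Both combination arrays lay below every other array of the line. The fold change of the combination over DMSO was -2.26 (SE 0.23, adjusted p = 0.0024).

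ZNF441 (block 4) had levels of -2.22 and -2.67 with DMSO and -5.02 and -4.82 with the combination, where it was no longer well above background. It was thus at least 3.48-fold lower, with an adjusted p of 0.037 that rose to as much as 0.17 without any 1 of 6 arrays. ZNF44 (block 4) was at -2.49 and -2.41 with DMSO, at -2.68 and -2.92 with UNC0638 and at -4.02 and -4.35 with the combination. The combination arrays, 1 of them above background, stood apart from all others of the line (fold change -1.73, SE 0.19, adjusted p = 0.0036).

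In block 6, ZNF676 went from -2.85 and -3.03 to -4.97 and -4.30, below the detection limit on both combination arrays and at least 2.48-fold lower (adjusted p = 0.0078). ZNF726 went from -1.29 and -1.14 to -2.58 and -3.07 (fold change -1.61, SE 0.22, adjusted p = 0.0071), without overlap between the groups. With normexp background correction these folds were smaller and all 5 remained called: -1.31 for ZNF556, -0.72 for ZNF441, -0.56 for ZNF44, -0.50 for ZNF676 and -0.92 for ZNF726.

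In MM.1S, ZNF426 (block 3, chr19:9638979-9639038) had the largest called fall outside block 6. This gene, whose product is known to bind a transactivator of a human herpesvirus, had levels of -1.52 and -1.64 with DMSO, -1.53 and -1.87 with GSK126, -2.95 and -3.18 with UNC0638 and -3.03 and -3.38 with the combination. The 4 arrays with UNC0638, alone or combined, lay below the other 4 of the line. The fold change was -1.62 with the combination (SE 0.17, adjusted p = 0.00082) and -1.48 with UNC0638 (adjusted p = 0.0039).

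ZNF486 (block 6, chr19:20307910-20307969) had MM.1S levels of -0.77 and -0.90 with DMSO, -1.11 and -1.26 with GSK126, -1.61 and -1.67 with UNC0638 and -1.88 and -2.49 with the combination. The 4 groups of MM.1S did not overlap and descended in that order, with a fold change of -1.35 for the combination (SE 0.20, adjusted p = 0.0023). ZNF729 had levels of 2.52 and 2.44 with DMSO and 1.78 and 0.57 with the combination, so its fall of 1.31 on the log2 scale (SE 0.36, adjusted p = 0.023) rested largely on combination replicate 2. Without that array the log2 change was -0.71, and without either DMSO array the gene was not called.

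ZNF506 and ZNF43, both of block 6, had the first and the third largest fitted falls in MM.1S (-1.75 and -1.58, with ZNF426 between them) but were at the detection limit already with DMSO, each above background on 1 DMSO array. The size of these falls is therefore not settled, and with normexp background correction they were -0.33 and -0.29. Without DMSO replicate 2, and for ZNF43 also without combination replicate 2, neither was called (adjusted p up to 0.072 and 0.057).

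ZNF358 (block 2) rose in both lines. Its RPMI-8226 levels were -3.49 and -3.64 with DMSO and -2.45 and -2.07 with the combination, and its MM.1S levels were -0.94 and -1.01 with DMSO and -0.32 and -0.38 with the combination. In each line both combination arrays lay above every other array. The fold change was 1.31 in RPMI-8226 (SE 0.26, adjusted p = 0.026) and 0.63 in MM.1S (SE 0.08, adjusted p = 0.0014). The RPMI-8226 value was 0.56 with normexp background correction. Leaving out any 1 of 6 arrays lost the RPMI-8226 call (adjusted p at most 0.10). ZNF627 (0.52, adjusted p = 0.0071) and ZNF564 (0.26, adjusted p = 0.037, lost without any 1 of 6 arrays and under 4 of 11 processing alternatives) were the other called rises of MM.1S, both in block 4, with fold changes of -0.35 and -0.40 in RPMI-8226 that were not called.

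Across the 58 members tested in both lines, 25 were called lower in both, 21 of them in block 6, and ZNF358 was called higher in both. Over all probes 5.45% were called lower in RPMI-8226 and 31.5% in MM.1S, and 7.10% and 22.2% higher. The share of all probes called in both lines is not given here, so the 25 have no such value beside them. The 5 with the largest smaller change were ZNF426 (-1.43 in RPMI-8226 and -1.62 in MM.1S), ZNF486 (-1.46 and -1.35), ZNF729 (-1.45 and -1.31), ZNF492 (-1.49 and -1.28) and ZNF728 (-1.09 and -1.29). With normexp background correction the RPMI-8226 values of ZNF486, ZNF492 and ZNF728 were -0.66, -0.60 and -0.52, and the MM.1S values of ZNF426 and ZNF492 were -0.92 and -0.71, all called. In RPMI-8226 the call of ZNF426 was lost without DMSO replicate 1 or combination replicate 2, those of ZNF486 and ZNF492 without DMSO replicate 2, and that of ZNF728 without DMSO replicate 1 or combination replicate 1. In MM.1S the call of ZNF728 was lost without either DMSO array or combination replicate 1. Over these 58 genes, which are not independent replicates and share their arrays, the changes in both lines had a Pearson r of 0.57 and a Spearman rho of 0.64. In 49 of the 58 the change was more negative in RPMI-8226.

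**Figure D3:**
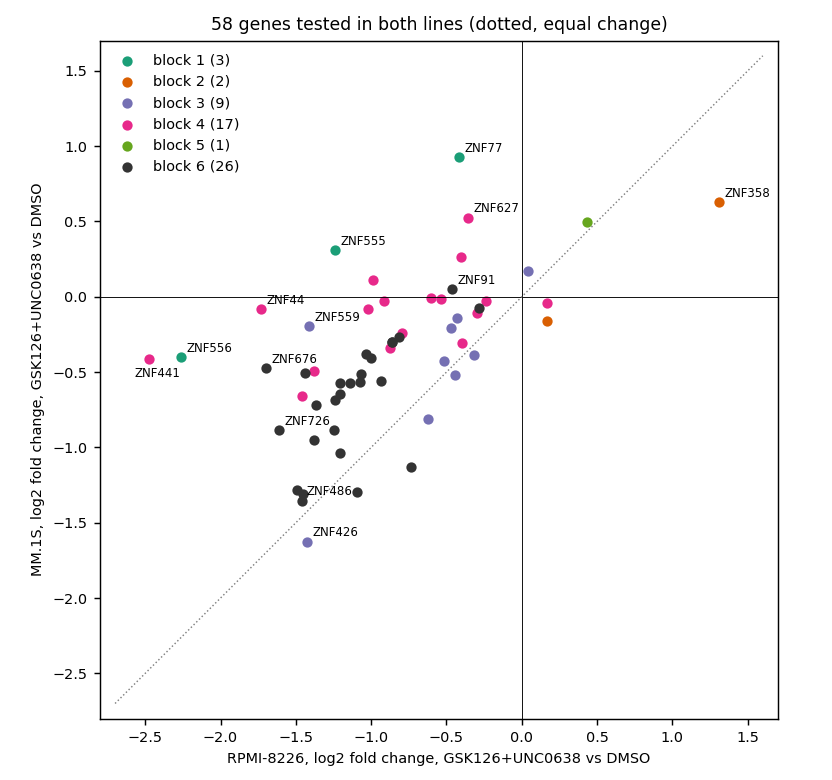
Log2 fold change of the combination over DMSO in RPMI-8226 (horizontal) and MM.1S (vertical) for the 58 members tested in both lines, coloured by block, with a dotted line of equal change. Most block 6 points lie in the lower left, ZNF426 and ZNF486 fell in both lines, ZNF358 rose in both, and ZNF556, ZNF441 and ZNF44 lie far to the left.

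ZNF93, a repressor of LINE-1 retrotransposons, had RPMI-8226 levels of -0.26 and -0.49 with DMSO, -1.08 and -0.92 with GSK126, -1.22 and -1.08 with UNC0638 and -1.52 and -1.64 with the combination. Its MM.1S levels were 0.09 and -0.07, -0.47 and -0.42, -0.73 and -0.51, and -0.99 and -1.06 in the same order. The order of the 4 groups was the same in both lines, with no overlap between DMSO and any treatment. The combination changed it by -1.21 in RPMI-8226 (SE 0.15, adjusted p = 0.0056) and by -1.03 in MM.1S (SE 0.11, adjusted p = 0.00078).

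ZNF91, which represses SVA retrotransposons, was with ZNF101 one of the block 6 members called in neither line. Its RPMI-8226 levels were -2.50 and -2.86 with DMSO and -3.19 and -3.10 with the combination, and its MM.1S levels were -2.20 and -2.47 with DMSO and -2.44 and -2.13 with the combination. Its changes of -0.46 (adjusted p = 0.14) and 0.05 (adjusted p = 0.79) did not pass the test, and the MM.1S groups overlapped. The RPMI-8226 change was -0.64 to -0.28 when 1 array was left out and -0.63 to -0.24 under the processing alternatives. Also not called in block 6 were ZNF101 (-0.29) and ZNF257 (-0.86, adjusted p = 0.066) in RPMI-8226, and ZNF101 (-0.07), ZNF738 (-0.27) and ZNF676 (-0.47) in MM.1S. These values are of the brightest probe, and a second probe of ZNF738 was called lower in MM.1S, at -1.66, as was a second probe of ZNF257 in RPMI-8226, at -2.20.

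ZNF675, an inhibitor of TRAF6 signalling, changed by -1.21 (adjusted p = 0.017) and -0.65 (adjusted p = 0.0014) in RPMI-8226 and MM.1S. ZNF85, a KRAB repressor, changed by -1.24 (adjusted p = 0.013) and -0.69 (adjusted p = 0.0051). ZNF253 and ZNF254, cloned from haematopoietic cells, changed by -0.998 and -0.86 in RPMI-8226 and by -0.41 and -0.30 in MM.1S, all called. The RPMI-8226 calls of ZNF675, ZNF253 and ZNF254 were each lost without any 1 of 4 arrays, that of ZNF85 without DMSO replicate 1, and in MM.1S that of ZNF254 without any 1 of 4 arrays. Under quantile normalization ZNF254 was at 0.069 in MM.1S and ZNF253 at -0.10, neither called. With each gene's probes averaged they were at -0.80 and -0.72, both called, and the 4 tested ZNF254 probes ranged from -1.86 to -0.29. ZNF208 fell by 0.93 on the log2 scale in MM.1S and was not tested in RPMI-8226, where 1 DMSO array was above background. Across the processing alternatives its MM.1S change ranged from -1.12 to -0.36.

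Outside block 6, ZNF121, known to interact with MYC, changed by -0.52 in MM.1S (adjusted p = 0.0050) and by -0.44 in RPMI-8226 (adjusted p = 0.14). ZNF317 (-0.38, adjusted p = 0.023) and ZNF136 (-0.24, adjusted p = 0.047) were called lower in MM.1S, the former not without DMSO replicate 2 or combination replicate 2 and under 4 of 11 processing alternatives and the latter not without any 1 of the 8 arrays and under 6 of the 11 (as small as -0.049), and their RPMI-8226 values of -0.31 and -0.79 were not called. ZNF333, which carries a pair of KRAB domains, had positive changes that were not called (0.43 in RPMI-8226 and 0.50 in MM.1S). In MM.1S its combination and DMSO arrays did not overlap, limma's adjusted p was 0.054, and it was called under 4 of 11 processing alternatives. The changes of ZNF653, known as a partner of steroidogenic factor 1 (0.17 and -0.04), and of ZNF699 in MM.1S (0.22) were not called either.

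**Figure D4:**
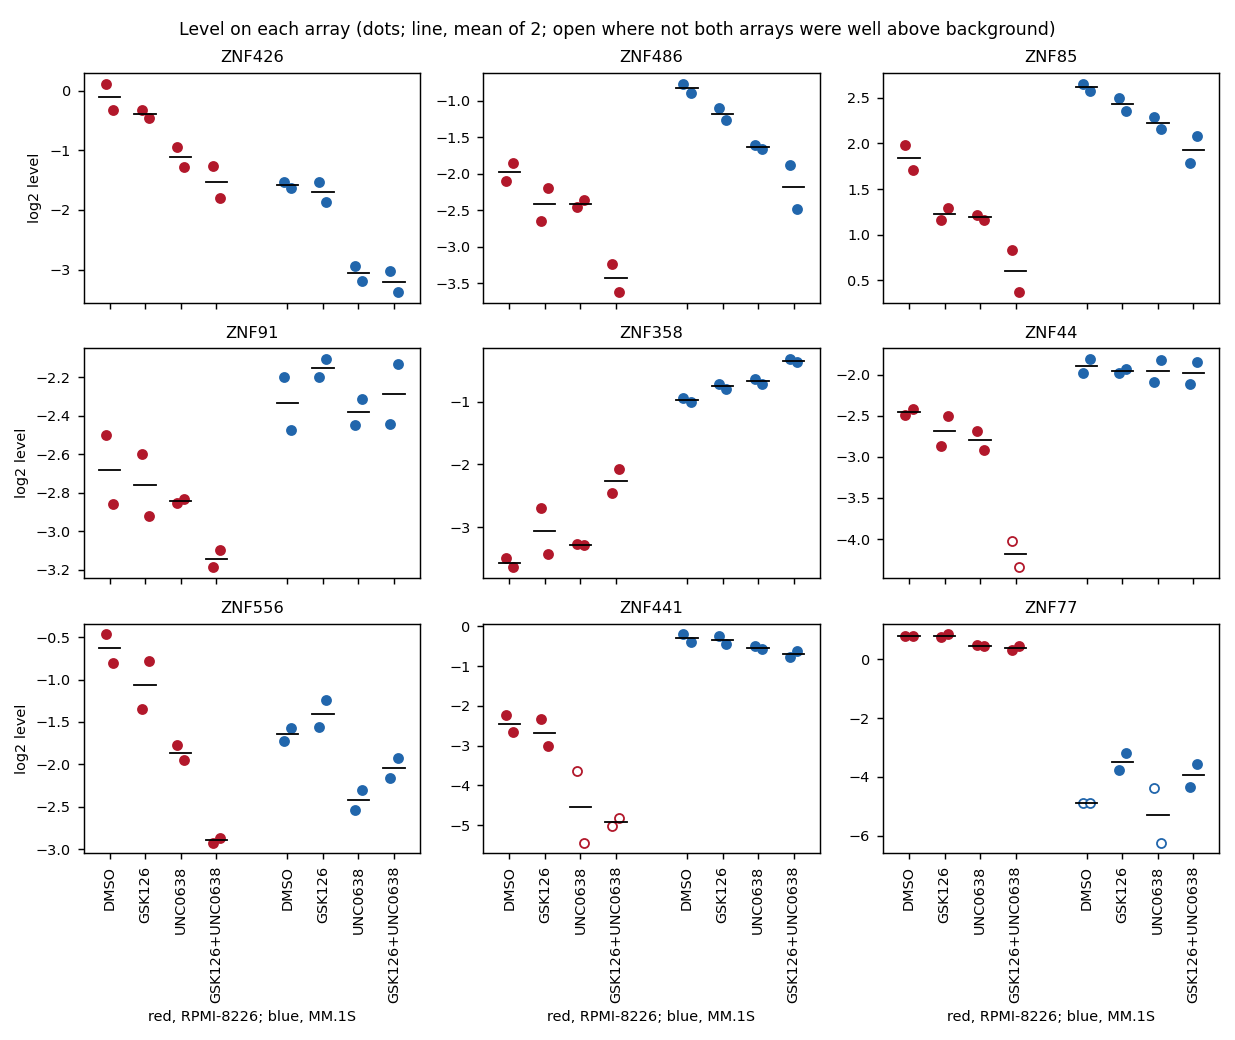
Levels of 9 members on each array (dots, with the mean of 2 as a line, open where not both arrays were well above background) by treatment in RPMI-8226 (red) and MM.1S (blue), as log2 intensity relative to the 75th percentile, each panel on its own scale. ZNF426, ZNF486 and ZNF85 are lowest with the combination in both lines, ZNF91 overlaps between groups in MM.1S, ZNF358 steps up, and ZNF44 drops with the combination in RPMI-8226.

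With either agent alone the median change of the members was smaller than with the combination. In RPMI-8226, GSK126 gave no called member of 60 by limma where 0.599% of all probes were called either way. An unadjusted p under 0.05 was reached by 19 members, all lower, and by 2488 of all 23196 probes, 1164 of them lower. UNC0638 gave none of 60 by limma either, beside 0.638% of all probes, and at an unadjusted p under 0.05 it gave 38 members, all lower, and 2293 probes, 1199 of them lower. The medians of the members were -0.30 with GSK126 and -0.56 with UNC0638, against -0.06 and -0.05 over all probes. Block 6 had medians of -0.51 and -0.63, with 26 and 27 of its 27 changes below 0. Its median with GSK126 was -0.34 without GSK126 replicate 1 and -0.67 without GSK126 replicate 2.

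RPMI-8226 arrays with the same replicate number, which also share a slide row, deviated together. With the replicate number as a block, 6 members of that line were called lower with UNC0638: ZNF555, ZNF426, ZNF136, ZNF737, ZNF676 and ZNF98. Of all probes, 0.504% were called lower in that fit. In the fit without the block their changes included -0.96 for ZNF555 (adjusted p = 0.081), -1.01 for ZNF426 (adjusted p = 0.20), -1.05 for ZNF136 (adjusted p = 0.15) and -1.31 for ZNF676 (adjusted p = 0.092).

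In MM.1S, GSK126 called none of 68 members by limma beside 7.48% of all probes called either way (4 members and 7044 of 25100 probes had an unadjusted p under 0.05), with a median of -0.06 against -0.05 over all probes. UNC0638 called 26 lower and 1 higher, where 16.7% and 12.8% of all probes were called lower and higher, and the median was -0.29 against -0.07. Of the 26, 19 lay in block 6 (6 to 17 when 1 array was left out, lowest without either DMSO array), whose median was -0.49. The count of members called with UNC0638 was 9 without DMSO replicate 1, 8 without DMSO replicate 2, 10 without UNC0638 replicate 1 and 11 without UNC0638 replicate 2.

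Among the members above background in both groups, ZNF426 (-1.48) and ZNF208 (-0.91) had the largest called falls with UNC0638 in MM.1S. ZNF43, above background on 1 DMSO array and on no UNC0638 array, was also called, with a size that is not settled. Under normexp, ZNF426 was at -0.88 and ZNF208 at -0.34. ZNF208 had levels of -3.27 and -3.08 with DMSO, -3.10 and -2.99 with GSK126, -4.36 and -3.80 with UNC0638 and -4.22 and -4.00 with the combination. All 4 arrays with UNC0638 lay below the 4 without it. The call of ZNF208 with UNC0638 was lost without any 1 of 3 arrays, and the rise of ZNF358 (0.30, adjusted p = 0.039) was lost whichever of the 8 arrays was left out.

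Adding the second agent was tested directly. In RPMI-8226 the combination was lower than GSK126 alone in 7 of 60 members (ZNF555, ZNF556, ZNF44, ZNF626, ZNF430, ZNF729 and ZNF98), where 0.573% of all probes were called lower, with a median of -0.54. This count was 16 with the replicate number as a block, where 1.63% of all probes were called lower, and 1 to 4 when any 1 of the 8 arrays was left out. It was lower than UNC0638 alone in 2 members, ZNF44 (-1.38) and ZNF729 (-0.91), beside 0.673% of all probes, with a median of -0.30. Neither was called without UNC0638 replicate 1 or 2, or without combination replicate 1 or 2.

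In MM.1S the combination against GSK126 gave 27 lower and 3 higher of 68 (21.5% and 15.3% over all probes), with a median of -0.32 and 16 of the lower calls in block 6 (9 without either GSK126 array and 10 without combination replicate 2). These calls include ZNF506 and ZNF43, which passed the filter through the GSK126 group alone, so the filter favoured a fall in this comparison. The count of called members was 19 without GSK126 replicate 1, 16 without GSK126 replicate 2 and 18 without combination replicate 2. Against UNC0638 it gave 3 lower (ZNF788 -0.50, ZNF442 -0.56 and ZNF492 -0.56) and 1 higher (ZNF358 0.33), beside 7.02% and 6.02% of all probes, with a median of -0.10. That count was 0 without either UNC0638 array or combination replicate 2, and 1 without either DMSO or either GSK126 array.

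The fitted level with the combination was below that of both single agents in 46 of 60 members in RPMI-8226 (25 of 27 in block 6) and in 46 of 68 in MM.1S (25 of 29 in block 6). On the log2 scale the change with the combination minus the sum of both single changes had a median of 0.01 in RPMI-8226 and -0.01 in MM.1S, and of 0.03 over block 6 in each line.

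The lines differed before treatment. With DMSO, 38 of 70 members were lower and 8 higher in RPMI-8226 than in MM.1S, where 28.8% and 28.9% of all 26928 probes were called lower and higher, and the median of the members was -0.54 against -0.01 (-0.20 with normexp background correction). Of the 46 calls 9 were of members that passed the filter in 1 line alone, 7 lower and 2 higher, whose direction the filter fixed. The 58 members that passed in both lines had 31 lower and 6 higher. Because line, slide and scan coincide, this comparison holds all of them together. ZNF77 had levels of 0.79 and 0.80 in RPMI-8226 and of -4.87 on both MM.1S arrays, where it was not well above background, and was at least 47.5-fold higher in RPMI-8226. ZNF14 and ZNF57 were at least 9.75-fold and 8.13-fold higher there, and were not above background on any MM.1S array. With normexp background correction the log2 differences were 3.22 for ZNF77, 1.83 for ZNF14 and 1.52 for ZNF57, all called.

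Among the members lower in RPMI-8226, ZNF177 and ZNF788 were above background in MM.1S alone and at least 4.77-fold and 4.99-fold lower. ZNF558, a KRAB repressor known to silence the mitophagy gene SPATA18, had levels of -2.48 and -3.38 in RPMI-8226 and -0.21 and -0.35 in MM.1S (difference -2.66, SE 0.37, adjusted p = 0.00014). ZNF358 differed by -2.59. With normexp background correction the differences were -0.84 for ZNF177, -0.80 for ZNF788, -1.61 for ZNF558 and -1.33 for ZNF358, and ZNF439, at least 1.26-fold lower, was not called (-0.22). ZNF426 (1.48) and ZNF556 (1.01) were higher in RPMI-8226.

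The response to the combination also differed between the lines, by limma's test of the difference of differences over all 16 arrays. Of 70 members, 12 had a more negative change in RPMI-8226 and none a less negative one, where 6.08% of all probes were called in that direction. The median difference was -0.53, against 0.05 over all probes, and -0.21 with normexp background correction. Of the 12, ZNF208 and ZNF676 were above background on no combination array of RPMI-8226. With these arrays at the detection floor the difference was -0.84 for ZNF676 and 0.88 for ZNF208, so the direction for ZNF208 rests on values below background. The largest were ZNF556 (-1.86, SE 0.29, adjusted p = 0.0029), ZNF44 (-1.65, SE 0.25, adjusted p = 0.0025) and ZNF555 (-1.55, SE 0.26, adjusted p = 0.0045), at -1.06, -0.51 and -0.94 with normexp background correction.

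ZNF555 had RPMI-8226 levels of -1.23 and -1.26 with DMSO, -1.36 and -1.19 with GSK126, -2.32 and -2.10 with UNC0638 and -2.63 and -2.34 with the combination. In MM.1S its levels were -0.48 and -0.25 with DMSO and -0.28 and 0.17 with the combination. In RPMI-8226 the combination arrays lay below every other array of the line and the GSK126 arrays overlapped those with DMSO, and in MM.1S the combination and DMSO arrays overlapped. The count of 12 rested on single arrays: it was 4 without either MM.1S DMSO array or either MM.1S combination array, 6 without DMSO replicate 1 of RPMI-8226, 7 without combination replicate 2 of RPMI-8226 or either MM.1S GSK126 array, and 18, with 1 further member called in the other direction, without either GSK126 array of RPMI-8226.

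Other gene groups give the scale of these changes. With the combination in RPMI-8226, 36 of 126 zinc finger genes of the long arm of chromosome 19 were called lower (median -0.59), 26 of 244 zinc finger genes of other chromosomes (median -0.12) and 39 of 469 other genes of the short arm (median -0.24). In MM.1S the counts were 57 of 127 (median -0.37), 64 of 262 (median -0.00) and 214 of 466 (median -0.31), so in that line other genes of the same arm were called lower about as often as the long-arm zinc finger genes. Called higher, in the same order, were 1, 10 and 14 in RPMI-8226 and 8, 60 and 71 in MM.1S. Over all probes 5.45% were lower and 7.10% higher in RPMI-8226, and 31.5% and 22.2% in MM.1S. No test compared these lists with each other. With UNC0638 in RPMI-8226 the long-arm zinc finger genes had a median of -0.54, beside -0.56 for the short arm, and with GSK126 the medians were -0.12 and -0.30. In MM.1S they were -0.34 and -0.29 with UNC0638 and -0.02 and -0.06 with GSK126, the long arm first.

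**Figure D5:**
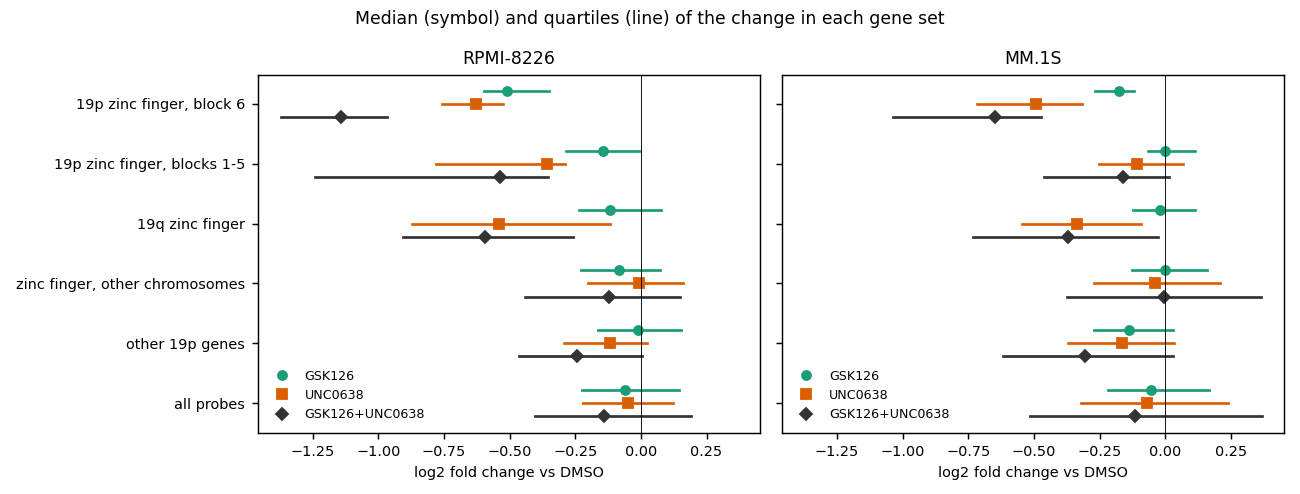
Median (symbol) and quartiles (line) of the log2 fold change over DMSO with GSK126, UNC0638 and the combination in each line, for short-arm zinc finger genes in block 6 and in blocks 1 to 5, other zinc finger genes, other genes of the short arm and all probes. With the combination block 6 has medians of -1.14 in RPMI-8226 and -0.65 in MM.1S, and all probes have -0.14 and -0.12.

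The machinery that KRAB proteins recruit was examined as a list of 32 genes. In RPMI-8226 none of the 32 was called with the combination by limma, beside 5.45% of all probes lower and 7.10% higher (4 of the list and 7366 of 23196 probes had an unadjusted p under 0.05), with a median of -0.18. In MM.1S 16 were called lower and 3 higher, beside 31.5% and 22.2% of all probes, with a median of -0.31. The 3 higher ones were CHD3, a chromatin remodeller of the NuRD complex (1.52), the DNA methyltransferase gene DNMT3A (1.28) and FAM208A, which encodes a HUSH subunit (0.55). TRIM28, the corepressor itself, changed by -0.42 in RPMI-8226 (adjusted p = 0.37) and by -0.97 in MM.1S (adjusted p = 0.00096). SETDB1, the methyltransferase it recruits, had changes of 0.07 and 0.10 that were not called. CBX3, an HP1 protein, changed by -0.68 and MORC2, a partner of the HUSH silencing complex, by -0.80 in MM.1S. EHMT2, which encodes the target of UNC0638, changed by -0.54 in RPMI-8226 (adjusted p = 0.15) and by -0.32 in MM.1S (adjusted p = 0.036).

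Where a gene had a further probe above background, the probes mostly moved in the same direction, though sizes could differ. With the combination in MM.1S the probes of ZNF738 were at -1.66 and -0.27 and those of ZNF257 at -1.96 and -0.30. Those of ZNF562 were closer, at -0.81 and -0.63. With the combination, 18 members had at least 2 tested probes in RPMI-8226 and in all 18 the probes had 1 sign. In MM.1S this held for 17 of 20, and the probes of ZNF561, ZNF441 and ZNF44 differed in sign. Of the 70 members 43 had a single probe. Whether a probe lies in an exon shared by all transcripts or in a UTR was not analysed here.

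Promoters were read to see what the members share besides their position. RefSeq (GRCh38.p14) sequences of 250 bases before to 50 after the start were found for 59 of the 70 members, 22 of them in block 6, and were searched on both strands for 5 short motifs, chosen with the results known, none of which lies inside another. CCAAT, the core of the NF-Y box, was present in 22 of 22 block 6 promoters, in 24 of 37 outside block 6 and in 35.7% of all 27305 promoters of the same length. The ETS core CCGGAAG was present in 15 of 22, in 6 of 37 and in 2913 of the 27305, and in 45.9% of the long-arm zinc finger promoters. The GC box GGGCGG was found in 48 of 59 member promoters (44.6% of all promoters). The TATA box TATAAA was found in 2 of 59 (3264 of the 27305), and the E-box CACGTG in none of these windows (7.43% of all). The median G+C content was 55.8% in block 6 and 58.3% over all promoters.

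The 250 upstream bases of 3 members show this, with CCAAT and CCGGAAG in capitals on either strand (5′ to 3′ along the gene). ZNF486 fell in both lines, ZNF91 was called in neither, and ZNF358 rose.
ZNF486, chr19:20166964-20167213, forward strand: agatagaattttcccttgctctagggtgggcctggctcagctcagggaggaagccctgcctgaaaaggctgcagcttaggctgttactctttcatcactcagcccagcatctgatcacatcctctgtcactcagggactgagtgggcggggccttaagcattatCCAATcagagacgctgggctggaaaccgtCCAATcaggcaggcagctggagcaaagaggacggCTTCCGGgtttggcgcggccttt
ZNF91, chr19:23395472-23395721, reverse strand: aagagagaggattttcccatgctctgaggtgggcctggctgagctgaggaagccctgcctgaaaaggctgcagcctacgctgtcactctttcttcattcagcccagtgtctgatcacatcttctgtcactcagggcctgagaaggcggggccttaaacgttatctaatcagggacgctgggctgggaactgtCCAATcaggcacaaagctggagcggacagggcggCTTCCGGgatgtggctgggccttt
ZNF358, chr19:7515853-7516102, forward strand: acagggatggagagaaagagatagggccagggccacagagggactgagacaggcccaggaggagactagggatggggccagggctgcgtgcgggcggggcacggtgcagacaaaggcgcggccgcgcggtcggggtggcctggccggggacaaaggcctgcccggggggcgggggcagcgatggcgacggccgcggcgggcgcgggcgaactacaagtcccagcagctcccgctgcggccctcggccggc
ZNF486 holds 2 CCAAT and 1 CCGGAAG, ZNF91 holds 1 of each and ZNF358 neither. A match describes these letters, no factor was measured there, and a part of these motifs in the changes was not tested. The called ZNF486 and the uncalled ZNF91 both carry the pair. ZNF101, also called in neither line, has CCAAT without CCGGAAG, and so does ZNF93, which was called lower in both. The same holds for ZNF90, ZNF626, ZNF714 and ZNF429, whose mean levels fell with the combination in both lines. It also holds for ZNF14, whose mean level fell in RPMI-8226.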

How the data were processed

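RNA of 16 cultures was hybridised by the authors to 1-colour Agilent whole-genome arrays and scanned. The deposited scanner files hold spot intensity, background-subtracted by the authors with Agilent Feature Extraction 10.7, and were not yet normalized between arrays; the series table held the same values (99.99585% of 939472 equal after rounding to 3 digits). Control and outlier spots were left out, spots of a probe averaged, and log2 intensity was set relative to the 75th percentile of each array. Probes that both arrays of some group in the fit showed well above background were tested with limma 3.58.1 (R 4.3.3) over the 8 arrays of a line, or all 16 between lines, with Benjamini-Hochberg adjustment over all probes kept and a threshold of 0.05. A member below background on both arrays of a group was given as a bound against the detection floor. Tests were checked on simulated data.

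In RPMI-8226, arrays with the same replicate number deviated together in 6 of 6 pairs of groups (r 0.25 to 0.42 over probes), so the pairing comes from the data. Replicate number and slide row coincide, so paired cultures and a shared row cannot be told apart. The study calls the replicates biological, neither it nor the labels names a shared day, and p-values measure the spread between these cultures. Their number limits the precision.

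Members and lists were chosen with earlier results of these data known. Named, where the arrays did not overlap, were the 5 largest called rises and falls with the combination in each line and 3 for each single agent. Without a condition on overlap, 5 called in both lines and 5 called between lines with DMSO were named. Also named were 3 in the response difference and, whether or not their arrays overlapped, members with a known role. Any further member was named after its values were seen. Alternatives covered background correction, scaling, filter, probe choice, variance prior, groups in the fit, the replicate block, the series table and each array left out.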

Additional observations from a re-analysis of the deposited data

Results flagged for a closer look

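Among the members taken by the naming rule, 6 differed between the lines in their change with the combination, by limma's test of the difference over all 16 arrays with Benjamini-Hochberg adjustment. The rule itself takes the largest called differences of this test (ZNF556, ZNF44 and ZNF555), and ZNF555 was named by no other part. The count is therefore partly fixed by the naming. The difference, RPMI-8226 minus MM.1S, was -1.86 for ZNF556, -1.65 for ZNF44, -1.55 for ZNF555, -1.30 for ZNF208, -1.23 for ZNF676 and -0.67 for ZNF564. ZNF208 (adjusted p = 0.037) was above background on 1 DMSO array and no combination array of RPMI-8226, and with the latter at the detection floor its difference was 0.88, so neither its size nor its direction is settled. ZNF564 (adjusted p = 0.046) was called higher in MM.1S, while its change of -0.40 in RPMI-8226 was not called. ZNF676 lost detection with the combination in RPMI-8226 alone, and its difference was -0.84 at the floor.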

How the results depend on the processing

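Counts of called members, higher and lower together, moved by more than 1.5 times as follows. With GSK126 in RPMI-8226, 1 fit over all 16 arrays gave 3 in place of 0. With UNC0638 in RPMI-8226, the count of 0 became 6 with the replicate block, 1 with an intensity-dependent prior and 15 with 1 fit. With the combination in RPMI-8226, 35 became 20 without a filter and 23 with only the groups compared. For the combination against GSK126 in RPMI-8226, 7 became 3 without a filter, 4 with probes above background on every array, 4 with the percentile over detected probes, 16 with the replicate block, 3 with only the groups compared and 23 with 1 fit. Against UNC0638 in RPMI-8226, 2 became 6 with quantile normalization, 1 with normexp, 1 without a filter, 1 with probes above background on every array, 1 with the mean over probes and 10 with 1 fit. In MM.1S, GSK126 gave 2 in place of 0 with normexp, with probes above background on every array and with the intensity-dependent prior. UNC0638 in MM.1S gave 9 without a filter and 13 with 1 fit in place of 27, and the combination against GSK126 gave 19 and 16 in place of 30. Against UNC0638 in MM.1S, 4 became 0 without a filter, 2 with the percentile over detected probes, 0 with only the groups compared and 0 with 1 fit. The 12 differences in response became 4 without a filter and 6 with only the groups compared. Leaving out 1 array gave, in RPMI-8226, 0 to 0 with either single agent, 16 to 33 with the combination, 1 to 4 against GSK126 and 0 to 3 against UNC0638. In MM.1S it gave 0 to 1 with GSK126, 8 to 23 with UNC0638, 27 to 38 with the combination, 16 to 27 against GSK126 and 0 to 6 against UNC0638. Between lines it gave 37 to 47 with DMSO and 4 to 19 for the response. Medians of the members also moved by more than 1.5 times, beside those given with the results. With normexp they were -0.17 for GSK126 and, for the combination, -0.34 against GSK126 and -0.16 against UNC0638 in RPMI-8226 and -0.045 against UNC0638 in MM.1S. With the percentile over detected probes they were -0.18 against UNC0638 in RPMI-8226, and in MM.1S -0.21 against GSK126, -0.0015 against UNC0638 and 0.016 for GSK126 over DMSO (-0.098 without GSK126 replicate 1). Block 6 had 15 lower calls with the combination in RPMI-8226 without a filter in place of 24. With UNC0638 in MM.1S it had 8 without a filter, 10 with 1 fit, 11 with the percentile over detected probes and 12 with quantile normalization in place of 19.

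With the combination, some named genes that were not called became called under processing alternatives. These were ZNF257 (4 of 11 alternatives), ZNF136 (3) and ZNF121 (1) in RPMI-8226 and ZNF333 (4) in MM.1S. Several calls of named genes were lost under other settings. Without a filter these were ZNF441, ZNF358, ZNF253, ZNF254 and ZNF728 in RPMI-8226 and ZNF728, ZNF729, ZNF564, ZNF254, ZNF257, ZNF317 and ZNF136 in MM.1S with the combination, and ZNF43, ZNF208 and ZNF358 in MM.1S with UNC0638. With 1 fit, the MM.1S calls lost were ZNF627 (adjusted p = 0.091), ZNF564, ZNF254, ZNF257 and ZNF136 with the combination and ZNF43 and ZNF358 with UNC0638. With quantile normalization ZNF564, ZNF253, ZNF254, ZNF257 (-0.18), ZNF317 (-0.23) and ZNF136 were lost in MM.1S, and with the percentile over detected probes ZNF728, ZNF253 (-0.22), ZNF254 (-0.11), ZNF257 (-0.11), ZNF317 (-0.20) and ZNF136 (-0.049, adjusted p = 0.64). With only the groups compared the lost calls were ZNF254 in both lines, ZNF729, ZNF564, ZNF257, ZNF317 and ZNF136 in MM.1S, and ZNF208 and ZNF358 with UNC0638 in MM.1S, and with normexp ZNF136 in MM.1S and ZNF439 between lines.

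Changes of sign were confined, among the named genes and settings tried, to members with small changes. ZNF91 in MM.1S was at -0.11 with quantile normalization, and at -0.11 to 0.21 when 1 array was left out (below 0 without DMSO replicate 2 or combination replicate 2). ZNF254 in MM.1S was at 0.069 with quantile normalization. ZNF653 ranged from -0.056 to 0.39 in RPMI-8226 (below 0 without combination replicate 2) and from -0.17 to 0.10 in MM.1S (above 0 without DMSO replicate 1 or combination replicate 2), where it was at 0.15 with the percentile over detected probes. ZNF699 in MM.1S was at -0.0057 with quantile normalization and ranged from -0.15 to 0.59 (below 0 without replicate 1 of DMSO or of the combination). The cause of these moves was not tested, except that leaving out an array or a filter changes the number of arrays or probes tested. In MM.1S the replicate numbers only share a label (r 0.085 to 0.22). The replicate block changed no count of called members by more than 1.5 times beyond those given. Within block 6 it moved the lower calls in MM.1S from 1 to 2 for the combination against UNC0638. In RPMI-8226 the block 6 lower calls moved from 0 to 3 with UNC0638 over DMSO. For the combination in that line they moved from 4 to 8 against GSK126 and from 1 to 2 against UNC0638. Dim probes limit the size of folds near background.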
